A study of Mus musculus with 2 samples.

Results

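The respiratory chain genes are the 107 protein-coding genes of the deposited table whose symbols begin with mt-, Nduf, Uqcr, Cox4 to Cox8 or Atp5, together with Sdha, Sdhb, Sdhc and Sdhd. They are 107 of 55246 rows in all, and 13 of them are encoded by the mitochondrial genome and 94 by the nucleus. By textbook roles, the nuclear members comprise 75 broadly used subunits, 8 assembly factors of complex I (Ndufaf1 to Ndufaf8) and 8 tissue-restricted isoforms. The rest are Cox7a2l, Atp5s and a second Atp5o row at 0 reads. Enough reads for a ratio (at least 10 over both libraries) were found for 101 members. The 6 left out were Cox6a2, Cox7b2, Cox8b, Cox8c, Ndufa4l2 and the second Atp5o row, and 4 of these had no read in either library.

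The study sequenced RNA from regulatory T cells (Treg cells, the CD4 T cells that restrain immune responses and depend on the transcription factor Foxp3) of the colon lamina propria, the tissue layer under the gut epithelium, in female mice. There was 1 library from wild-type mice (WT) and 1 from mice labelled Exon2KO, whose Foxp3 lacks exon 2. The labels give no strain, age or sorting scheme, and do not say whether a library pools several mice. With 1 library per genotype no difference can be set against a spread between samples, so no test of genotype was possible and every interval below covers counting error only.

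Complexes I to IV of the inner mitochondrial membrane carry electrons from NADH and succinate to oxygen, and complexes I, III and IV pump protons as they do so. Complex V, the ATP synthase, uses the proton gradient to make ATP. Complex II is wholly nuclear encoded, whereas the others combine subunits from both genomes. The mitochondrial genome is transcribed into long RNAs from both strands, which are then cut into messenger, ribosomal and transfer RNAs. Treg cells are known to rely on oxidative phosphorylation.

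The libraries held 16281133 (WT) and 15412425 (Exon2KO) reads in genes. Foxp3 had 6991 and 20946 reads, and a count over the whole gene does not check the deletion of 1 exon. The 6 Treg and T cell markers held 0.711% and 1.18% of the reads, none at 0, a summed log2 ratio of 0.62 (0.61 to 0.63). Beside Foxp3, Ctla4 was higher past the threshold (79358 and 132229 reads), while Cd3e (5154 and 5262), Cd4 (4593 and 5367), Cd3g (16671 and 15187) and Il2ra (2968 and 2370) were not past it in either direction. Genes of other cells were present too. The 8 plasma and B cell markers held 0.830% of the WT and 0.843% of the Exon2KO reads, none at 0, and most of these reads were Jchain (120089 and 113723). Their median log2 ratio was -0.35, with 1 higher and 2 lower past the threshold and 6 intervals wholly below 0. The 11 epithelial markers held 0.00776% and 0.0396%. Of these, 8 were higher in Exon2KO (Car1 24 and 1830 reads, Krt8 160 and 1604, Fabp2 0 and 169), 1 was lower (Muc2) and Epcam had 782 and 609 reads. The 6 myeloid, 8 stromal and 6 muscle markers summed to 624 and 779, 1175 and 1118, and 112 and 150 reads. In WT, 2 of the stromal markers (Pdgfrb and Cdh5) and 1 of the muscle markers (Tagln) were at 0. Their part in the results below was not tested. In bulk RNA, fewer cells of a type and less RNA per cell cannot be told apart.

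The mitochondrially encoded genes were higher in the Exon2KO library, while the ratios of the nuclear-encoded subunits were small. The 13 mitochondrial genes together counted 89670 (WT) and 139222 (Exon2KO) reads. That is 5713 and 8708 CPM, counts per 1000000 scaled reads. The summed ratio was 1.52-fold, or a log2 ratio of 0.61 (95% Clopper-Pearson interval 0.60 to 0.62). The 75 nuclear subunits had 210216 and 225865 reads together, or 13394 and 14127 CPM, a log2 ratio of 0.08 (0.07 to 0.09). The median log2 ratio was 0.70 over the 13 mitochondrial genes and 0.12 over the 75 nuclear subunits, against 0.00 over all 17363 genes with enough reads. Many of those genes have few reads. Over 4496 protein-coding genes with at least 1000 reads the median was -0.04 and the upper quartile 0.13. The median of the nuclear subunits thus lay near the upper quartile of deeply read genes. The difference between the mitochondrial and nuclear medians was 0.58, and it does not depend on the scaling between the libraries. Log2 ratios are Exon2KO over WT after TMM scaling with a prior count of 2.

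**Figure D1:**
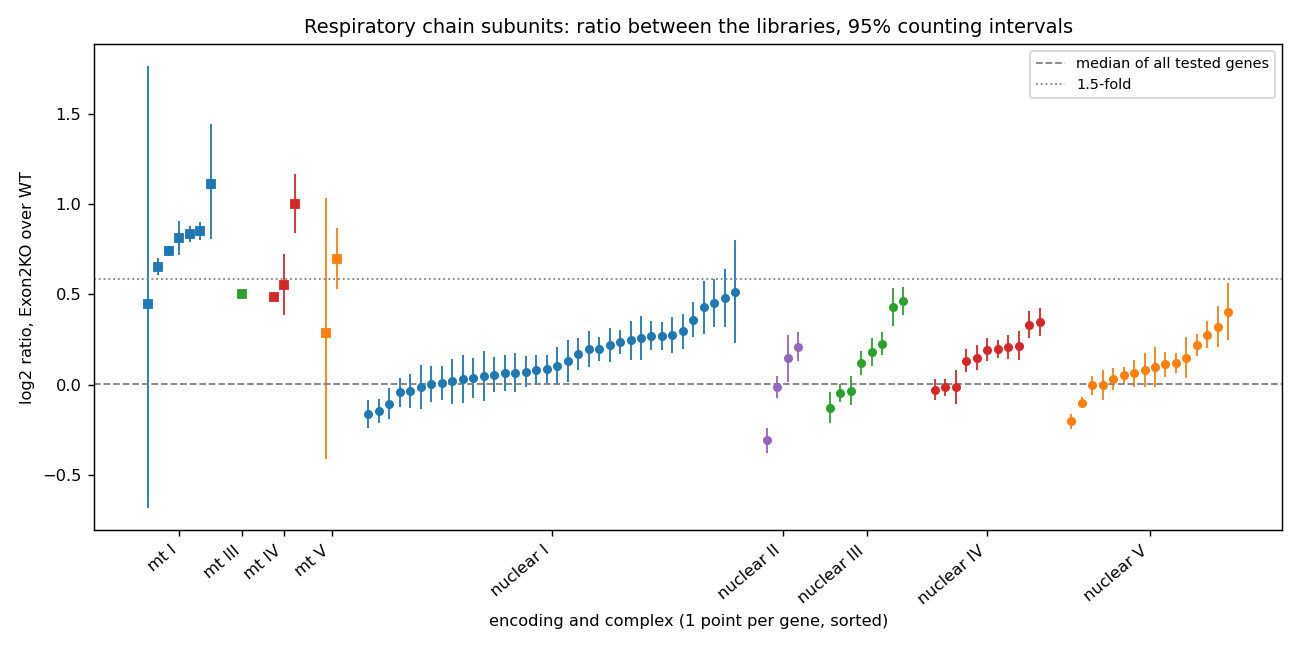
Log2 ratio of Exon2KO over WT for each subunit gene, grouped by encoding (squares mitochondrial, circles nuclear) and by complex, with bars for the 95% counting interval. The 13 mitochondrial genes have a median of 0.70 and the 75 nuclear subunits a median of 0.12, and the dashed line marks the median of all tested genes.

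A gene was counted as past the threshold when its ratio was at least 1.5-fold and its counting interval left out 1. By that rule 8 members were higher in Exon2KO, all of them mitochondrially encoded (mt-Nd1, mt-Nd2, mt-Nd3, mt-Nd4, mt-Nd5, mt-Nd6, mt-Co3 and mt-Atp6), and 1, Cox4i2, was lower. Over all genes tested the shares past the threshold were 12.2% higher and 11.8% lower. Many of those genes have few reads, and among 4496 protein-coding genes with at least 1000 reads the shares were 3.54% and 7.34%. None of the 75 nuclear subunits passed in either direction. At a threshold of 2-fold, 2 members were higher (mt-Nd3 and mt-Co3) and Cox4i2 was lower, where 8.53% and 7.41% of all genes tested were. The counts of mt-Nd3, mt-Co3, mt-Atp6 and part of mt-Nd4 are uncertain, because a nuclear copy described below shares their sequence. With total counts in place of TMM, 11 mitochondrial and 3 nuclear members (Ndufb2, Ndufc1 and Atp5s) were higher past the threshold. Cox4i2 was no longer counted as lower, since its interval took in 0 (-3.32 to 0.03). Of all 17363 genes tested, 2590 were then higher and 1681 lower, against 2114 and 2043 with TMM. Total counts raised the median of all genes by 0.10. The authors' own comparison used the same 1 library per genotype. Its adjusted p-values therefore rest on no spread between samples, and they are given only as deposited. The authors' deposited table gives an adjusted p-value for 103 members, of which 0 are below 0.05. The lowest there is 0.156, for mt-Nd3, and 4.58% of the 22447 genes with an adjusted p-value in that table are below 0.05.

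Measured within each library, which needs no scaling, mitochondrial genes took 29.4% (95% Wilson interval 29.2 to 29.6) of the respiratory chain reads in WT and 37.6% (37.4 to 37.8) in Exon2KO. By complex, the mitochondrial share was 35.9% and 46.7% for complex I and 55.9% and 62.3% for complex III. It was 37.4% and 43.4% for complex IV. For complex V it was 0.681% and 1.08%, from 498 and 812 mitochondrial reads. The share was thus higher in Exon2KO in all 4 complexes with subunits from both genomes. For complex V it rests mostly on mt-Atp6 (467 and 773 reads), whose count is uncertain because of a nuclear copy described below. The shares leave out Cyc1 of complex III and Usmg5 of complex V, whose symbols the rule does not take in.

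**Figure D2:**
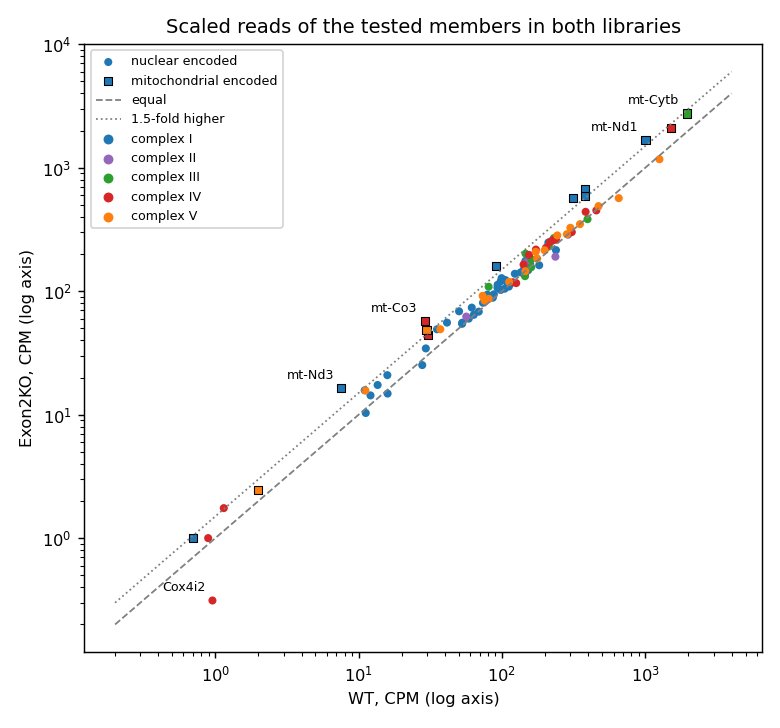
CPM in the WT library (x, log axis) against the Exon2KO library (y, log axis) for the 101 members with enough reads, coloured by complex; squares are mitochondrially encoded. The 13 mitochondrial genes lie above the dashed line of equality, and the nuclear members lie on both sides of it; Cox4i2 and Cox7a1 are the nuclear points farthest from it, and the dotted line marks 1.5-fold higher.

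Of the 7 mitochondrial subunits of complex I, which belong to its proton-pumping membrane arm, 6 were higher past the threshold, and the median over the 7 was 0.81. mt-Nd1 (ENSMUSG00000064341, chrMT:2751-3707, GRCm38) had 15734 and 26791 reads in WT and Exon2KO, at a log2 ratio of 0.74 (0.71 to 0.77). mt-Nd2 had 4943 and 9092 reads, at 0.85 (0.80 to 0.90). mt-Nd4 had 5965 and 10837 reads, at 0.83 (0.79 to 0.88). These genes were between 1.67-fold and 1.81-fold higher in the Exon2KO library. mt-Nd5, at the distal end of the membrane arm, was at 0.65 (0.61 to 0.70), from 5920 and 9484 reads. mt-Nd6, which lies on the opposite strand from the other coding genes, had 1435 and 2569 reads and was at 0.81 (0.72 to 0.91). Its end overlaps that of mt-Nd5, and the use of strand in counting is not given in the sources used here, so the division of reads between these genes is uncertain. mt-Nd3 had 119 and 264 reads, at 1.11 (0.81 to 1.45). mt-Nd4l, with 11 and 16 reads, was too shallow to show a difference (0.45, -0.68 to 1.77).

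The deepest mitochondrial genes of complexes III and IV had smaller ratios than the 6 complex I genes past the threshold. mt-Cytb, the cytochrome b of complex III, had 30448 reads in WT and 43929 in Exon2KO, at 0.50 (0.48 to 0.52). mt-Co1, the catalytic subunit of complex IV, had 23669 and 33793 reads, at 0.49 (0.46 to 0.51). The intervals of both lay below those of mt-Nd1, mt-Nd2, mt-Nd4, mt-Nd5 and mt-Nd6. Accordingly, mt-Co1 and mt-Cytb together took 60.4% of the mitochondrial messenger reads in WT and 55.8% in Exon2KO, while the complex I genes took 38.1% and 42.4%. Of the remaining complex IV genes, mt-Co2, which receives electrons from cytochrome c, had 475 and 710 reads (0.55, 0.38 to 0.72), and mt-Co3 had 453 and 925 (1.00, 0.84 to 1.17). For complex V, mt-Atp6, part of the proton channel, had 467 and 773 reads (0.70, 0.53 to 0.87). mt-Atp8, which overlaps mt-Atp6, had 31 and 39 reads, too few to show a difference (0.29, -0.41 to 1.03).

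The level per gene length of these 13 genes differed by orders of magnitude along the genome in both libraries. mt-Cytb stood at 1696 CPM per kilobase in WT and 2402 in Exon2KO, and mt-Co1 at 976 and 1368. The genes that follow mt-Co1 in genome order, mt-Co2 (44.2 and 64.9), mt-Atp8 (9.68 and 11.96), mt-Atp6 (43.7 and 71.0), mt-Co3 (36.8 and 73.8) and mt-Nd3 (21.8 and 47.4), were far lower. mt-Nd4l was lowest, at 2.36 and 3.37. The low genes lie side by side, between mt-Co1 and mt-Nd4, and this stretch of the mitochondrial genome has a nearly identical nuclear copy on chromosome 1. The copy is annotated as 7 unprocessed pseudogenes between 24611535 and 24616197 on the minus strand (GRCm38).

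**Figure D3:**
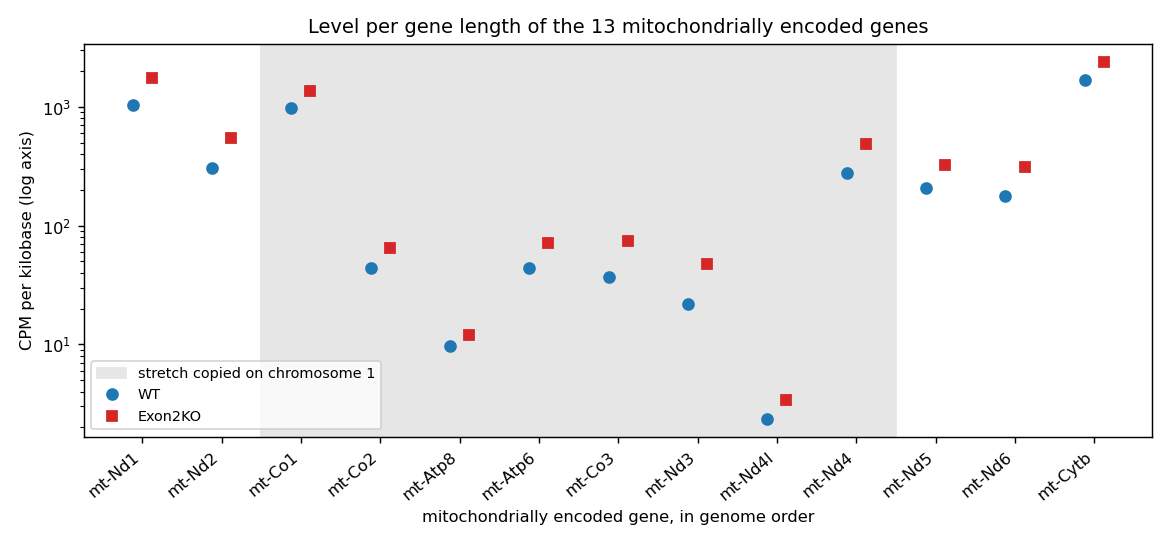
CPM per kilobase (log axis) of the 13 mitochondrially encoded genes in genome order in the WT library (circles) and the Exon2KO library (squares). Grey marks the stretch from mt-Co1 to mt-Nd4 with a copy on chromosome 1, although the annotated copy covers mt-Co1 and mt-Nd4 only in part. The genes inside the stretch between mt-Co1 and mt-Nd4 sit lowest, and in every gene the Exon2KO point is above the WT point.

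The similarity is shown by the first 120 bases of mt-Nd3 (chrMT:9459-9578) and of its copy Gm28438 (chr1:24613000-24613119, minus strand), from GENCODE M21 transcripts. Over all 345 aligned bases 1 differed, T3C, counted from the first base of mt-Nd3 with the mitochondrial base first, and it is in capitals:
mt-Nd3: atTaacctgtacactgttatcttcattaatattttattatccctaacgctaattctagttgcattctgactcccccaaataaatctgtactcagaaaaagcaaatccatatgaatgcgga
Gm28438: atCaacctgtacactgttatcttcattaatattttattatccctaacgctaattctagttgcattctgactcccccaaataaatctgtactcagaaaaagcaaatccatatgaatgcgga

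mt-Co2, mt-Atp6, mt-Co3, mt-Nd4l and the copied part of mt-Nd4 were identical to their copies over 681, 678, 783, 294 and 876 bases. Of the 50-base windows of each gene, the share found without a mismatch in an annotated transcript outside the mitochondrial genome was 100% for mt-Co2, 99.5% for mt-Atp6 and 99.9% for mt-Co3. It was 98.0% for mt-Nd3, 98.8% for mt-Nd4l, 62.2% for mt-Nd4 and 51.1% for mt-Co1. It was 8.19% for mt-Nd2 and 7.61% for mt-Nd5. It was 0 for mt-Nd1, mt-Nd6, mt-Cytb and mt-Atp8, although mt-Atp8 lies inside the stretch, between genes with copies. Only annotated transcripts were searched. The bases between the copies of mt-Atp6 (up to 24614651) and mt-Co2 (from 24614885) hold none of the 7 annotated copies. An unannotated copy of mt-Atp8 there would not have been found. Reads were also counted on the copies, 413 and 584 on Gm28661 (the copy of mt-Co2), 471 and 675 on Gm10925 (mt-Atp6) and 278 and 600 on Gm28437 (mt-Co3). The counts of the genes in this stretch are therefore uncertain, and how reads that match in more than 1 place were counted is not given in the sources used here. The 7 copies together had 1339 and 2224 reads, at a log2 ratio of 0.71 (0.61 to 0.80). The 5 genes outside the stretch (mt-Nd1, mt-Nd2, mt-Nd5, mt-Nd6 and mt-Cytb) had a median log2 ratio of 0.74 and a summed ratio of 0.62 (0.61 to 0.64).

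The mitochondrial ribosomal RNAs, which come from the same genome but are outside the rule, were also higher in Exon2KO. mt-Rnr2 had 43992 and 69485 reads, at 0.63 (0.62 to 0.65), and mt-Rnr1 had 3251 and 6584, at 0.99 (0.93 to 1.05). Among the 22 mitochondrial transfer RNAs, 58 and 57 reads were counted in all.

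Of the 75 nuclear subunits, 57 had a log2 ratio above 0 and 18 below. The counting interval lay wholly above 0 for 41 of them (54.7%) and wholly below for 7 (9.33%), where 22.8% and 24.6% of all genes tested did so. Among deeply read protein-coding genes these shares were 26.8% and 40.5%. The sizes were small, from -0.31 (Sdha) to 0.51 (Ndufb2). Only Ndufb2 reached the ratio of mt-Co1, the lowest among mitochondrial genes with at least 100 reads in 1 library. Under total counts 69 nuclear subunits were above 0 and 6 below. The interval then lay wholly above 0 for 62 and wholly below for 2, while the median of all genes stood at 0.11.

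Complex I contributed 36 nuclear subunits with a median log2 ratio of 0.09. The 7 core subunits, which hold the flavin and the iron-sulfur clusters, ranged from 0.00 (Ndufs3) to 0.27 (Ndufs8) with a median of 0.09. Ndufv2 had 2287 reads in WT and 2810 in Exon2KO, at 0.27 (0.19 to 0.35). Ndufs1, the largest core subunit, had 921 and 959 reads, at 0.03 (-0.10 to 0.16). The 29 accessory subunits had a median of 0.10. Ndufb2 was highest, with 173 and 252 reads (0.51, 0.23 to 0.80), followed by Ndufc1 with 553 and 786 (0.48, 0.32 to 0.64). Ndufb7 was lowest, with 2853 and 2595 reads (-0.16, -0.24 to -0.09). Core and accessory subunits thus had like medians. The 8 assembly factors had a median of 0.15, from -0.14 (Ndufaf7) to 0.39 (Ndufaf4, 249 and 334 reads).

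The 4 subunits of complex II, the succinate dehydrogenase shared with the citric acid cycle, lay on both sides of 0. Sdha, the flavoprotein (ENSMUSG00000021577, chromosome 13), had 3702 reads in WT and 3042 in Exon2KO, at -0.31 (-0.38 to -0.24), the lowest of all 75 nuclear subunits. Sdhd, a membrane anchor, had 2328 and 2744 reads, at 0.21 (0.13 to 0.29). Sdhc was at 0.15 (0.01 to 0.28) and the iron-sulfur subunit Sdhb at -0.01 (-0.07 to 0.05). The median of the 4 was 0.07, but the summed ratio was below 0, at -0.04 (-0.08 to -0.00). The sign of that sum turned with total counts, at 0.07 (0.03 to 0.11), and its interval took in 0 with DESeq2 size factors (-0.06 to 0.01) and with upper quartile scaling (-0.07 to 0.00).

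Complex III had 8 nuclear subunits under the rule, which leaves out Cyc1 (given below), with a median of 0.15. Uqcr10, a small membrane subunit (chromosome 11), had 2293 reads in WT and 3221 in Exon2KO, at 0.46 (0.39 to 0.54), and Uqcr11 had 1267 and 1737, at 0.43 (0.32 to 0.53). The Rieske iron-sulfur protein Uqcrfs1 was at 0.18 (0.10 to 0.26). Uqcrc1 and Uqcrc2, the large core proteins that face the matrix, were at -0.05 (-0.10 to 0.01) and -0.13 (-0.22 to -0.04).

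The 11 nuclear subunits of complex IV had a median of 0.19, the highest among the complexes. Cox7a2 had 2423 reads in WT and 3144 in Exon2KO, at 0.35 (0.27 to 0.43), and Cox7b had 2707 and 3473, at 0.33 (0.26 to 0.41). Cox8a was lowest, with 4818 and 4812 reads (-0.03, -0.09 to 0.03). Ndufa4, now assigned to complex IV despite its name, is counted here, at 0.15 (0.08 to 0.22). Cox7a2l, which helps join complexes III and IV into supercomplexes, was at -0.11 (-0.20 to -0.02).

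Tissue-restricted isoforms were near absent beside their broadly used partners. Cox4i2, the isoform known from lung, had 15 reads in WT and 5 in Exon2KO, at -1.30 (-3.43 to -0.08), against 7146 and 7209 for Cox4i1 (-0.01, -0.06 to 0.03). The Cox4i2 difference rests on 20 reads. The muscle isoform Cox7a1 had 18 and 28 reads (0.56, -0.29 to 1.55), beside 2423 and 3144 for Cox7a2. Cox6b2, an isoform known from testis, had 14 and 16 reads, beside 3737 and 4176 for Cox6b1. Cox6a2 had 2 and 0 reads beside 6017 and 7025 for Cox6a1, and Ndufa4l2 had 2 and 1 beside 3189 and 3599 for Ndufa4. Cox7b2, Cox8b and Cox8c had no read in either library, and a count of 0 leaves room for at most 1.84e-05% of all WT and 1.95e-05% of all Exon2KO reads (3 reads).

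Complex V had 16 nuclear subunits under the rule, with a median of 0.09. Their summed ratio was 0.01 (-0.01 to 0.02), or 0.11 (0.10 to 0.13) with total counts. The rule leaves out the subunit gene Usmg5, which had 5419 and 5999 reads (0.12, 0.07 to 0.17). The subunits of the catalytic head of complex V with the most reads were lower in Exon2KO under TMM. Atp5b, the beta subunit and the deepest nuclear member, had 19697 reads in WT and 18726 in Exon2KO, at -0.10 (-0.13 to -0.07), and Atp5a1, the alpha subunit, had 10242 and 9063, at -0.20 (-0.24 to -0.16). Both differences are under 1.5-fold. With total counts Atp5a1 was at -0.10 (-0.14 to -0.06), and the direction of Atp5b turned, at 0.01 (-0.02 to 0.04). The highest ratio of the complex was that of Atp5k, a small membrane subunit, with 583 and 787 reads, at 0.40 (0.25 to 0.56). Of other small membrane subunits, Atp5mpl had 1151 and 1466 reads, at 0.32 (0.21 to 0.43), Atp5l had 2699 and 3333, at 0.28 (0.20 to 0.35), and Atp5j2 had 2763 and 2939, at 0.06 (-0.01 to 0.14). The 3 genes of the c-ring subunit, Atp5g1, Atp5g2 and Atp5g3, were at -0.00, 0.15 and 0.12. They encode the same mature protein, so reads in shared sequence are uncertain. Atp5s, a factor outside the enzyme itself, had 175 and 251 reads, at 0.49 (0.21 to 0.78).

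By deposited gene length, the ratio of the nuclear subunits was higher in the shorter classes, with exceptions: Ndufb2 (5628 bases) and Atp5l (6443 bases) are among the longest. The median log2 ratio was 0.24 for 18 subunits under 1000 bases, 0.12 for 28 from 1000 to under 2000 bases and 0.03 for 29 of 2000 bases or more. Among other protein-coding genes with at least 1000 reads the corresponding medians were 0.06 (98 genes), -0.03 (528) and -0.05 (3783). After the trend on length over all tested genes was taken out, the median of the nuclear subunits was 0.08 and that of the mitochondrial genes 0.63.

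**Figure D4:**
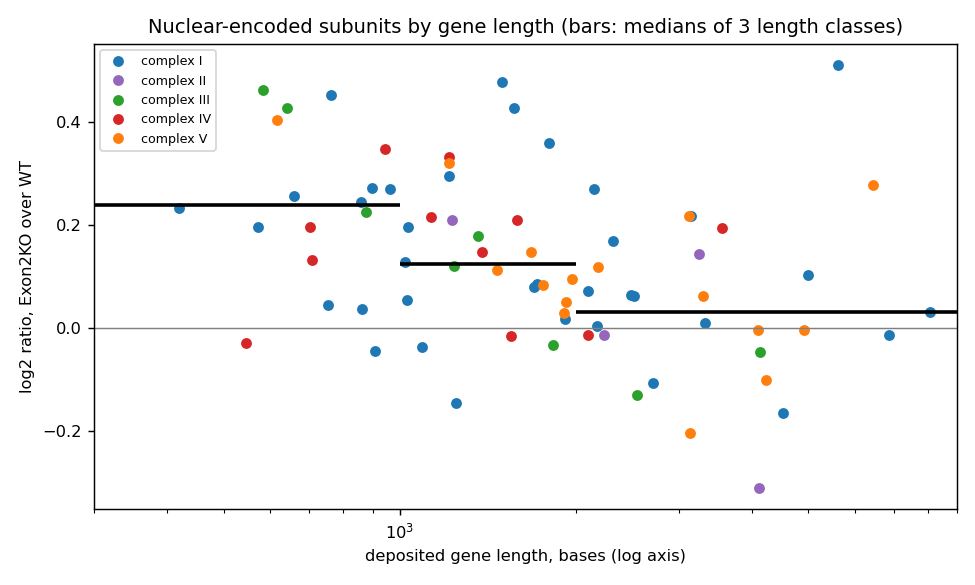
Log2 ratio of Exon2KO over WT against the deposited gene length (log axis) for the 75 nuclear-encoded subunits, coloured by complex, with bars for the medians of the length classes. The medians are 0.24, 0.12 and 0.03 from the shortest to the longest class.

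Promoters of nuclear respiratory genes are known to be bound by the factors NRF1, GABP (an ETS factor) and YY1. RefSeq promoters (250 bases before to 50 after the start, GRCm38.p6) were matched for 62 of the 75 nuclear subunits. The consensus NRF1 motif was found in 7 of them (11.3%), against 1.41% of all 27025 genes with a promoter and 4.06% of 3595 protein-coding genes with at least 1000 reads. A form of it with fixed letters, which was searched first, was in 5 (8.06%), against 1.07% and 2.81%. The ETS motif CCGGAAGT was in 5 (8.06%), against 4.31% and 11.5%, and the YY1 motif ATGGCGGC in 6 (9.68%), against 2.61% and 7.18%. Motifs were searched on both strands, and the 2 forms of the NRF1 motif overlap each other. These shares rest on 5 to 7 promoters each and were not tested. Shown are the promoters of the subunits with the highest ratio among those holding the NRF1 consensus, Ndufa6 (chr15:82354242-82354541, minus strand), and among those holding the ETS motif, Uqcr11 (chr10:80406772-80407071, minus strand). Motif letters are in capitals:
Ndufa6: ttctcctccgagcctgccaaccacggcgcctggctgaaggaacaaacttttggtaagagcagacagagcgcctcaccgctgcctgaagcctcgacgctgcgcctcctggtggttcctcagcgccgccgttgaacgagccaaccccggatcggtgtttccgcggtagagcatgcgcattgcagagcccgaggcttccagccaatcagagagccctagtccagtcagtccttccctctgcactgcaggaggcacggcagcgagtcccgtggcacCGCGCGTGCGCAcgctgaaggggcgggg
Uqcr11: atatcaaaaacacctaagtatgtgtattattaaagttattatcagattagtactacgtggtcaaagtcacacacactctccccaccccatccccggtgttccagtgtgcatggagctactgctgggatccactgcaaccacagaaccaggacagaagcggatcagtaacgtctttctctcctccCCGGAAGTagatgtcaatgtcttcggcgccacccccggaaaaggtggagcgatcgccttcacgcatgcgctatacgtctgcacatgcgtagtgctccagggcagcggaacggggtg

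Other mitochondrial genes that serve the chain had list medians near that of all genes, with larger differences in single genes. The 7 lists were the carriers with coenzyme Q synthesis, other assembly factors, mitochondrial DNA maintenance and transcription, mitochondrial RNA processing, biogenesis regulators, the tricarboxylic acid cycle, and import with the outer membrane. Their medians ran from -0.10 for the 17 tricarboxylic acid cycle genes to 0.09 for 15 tested biogenesis regulators. With total counts the median of the tricarboxylic acid cycle genes was 0.01. Summed reads, which the deepest genes dominate, gave other values: -0.36 for the biogenesis regulators, -0.31 for import and outer membrane, -0.22 for DNA maintenance and transcription and -0.16 for the carriers, where the medians were above 0. The sums were -0.10 for the tricarboxylic acid cycle (0.01, -0.01 to 0.03, with total counts), 0.05 for RNA processing and 0.12 for other assembly factors. In the tricarboxylic acid cycle list none passed 1.5-fold, from -0.27 (Fh1, fumarase) to 0.17 (Idh3a, a subunit of isocitrate dehydrogenase). Cyc1, the cytochrome c1 subunit of complex III whose symbol the rule does not take in, had 3232 and 3042 reads (-0.11, -0.19 to -0.04). Total counts shift ratios up by 0.10, and the interval of Cyc1 then takes in 0. Cycs, the cytochrome c that carries electrons from complex III to complex IV, had 4195 and 4272 (-0.00, -0.06 to 0.06).

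Among 16 tested carrier and coenzyme Q genes, 3 were higher past the threshold and 1 lower, beside 12.2% and 11.8% of all genes. Coq8a, an atypical kinase of coenzyme Q synthesis, had 5267 reads in WT and 1996 in Exon2KO, at -1.43 (-1.50 to -1.35). Coq3, a methyltransferase of that pathway, had 154 and 340 reads, at 1.11 (0.84 to 1.40), and Pdss2 had 49 and 131, at 1.36 (0.91 to 1.90). Hccs, which attaches heme to cytochrome c, had 2313 and 3575, at 0.60 (0.53 to 0.68). Of 40 tested assembly factors 2 were higher and 1 lower. Timmdc1, for complex I, had 81 and 157 reads, at 0.91 (0.53 to 1.33), Atpaf1, for complex V, had 66 and 110, at 0.69 (0.26 to 1.17), and Sdhaf1, for complex II, had 306 and 190, at -0.71 (-0.98 to -0.45).

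The 20 genes of mitochondrial DNA maintenance and transcription had a median of 0.04, with 0 higher and 2 lower past the threshold, beside 12.2% and 11.8% of all genes. The mitochondrial RNA polymerase Polrmt had 163 and 187 reads (0.17, -0.14 to 0.48). Tfam, which packages the genome and starts its transcription, had 977 and 886 (-0.17, -0.30 to -0.04). With the shift of total counts the interval of Tfam takes in 0. Polg2, the accessory subunit of the DNA polymerase, had 1096 and 645 reads, at -0.79 (-0.93 to -0.65), and the thymidine kinase Tk2 had 821 and 486, at -0.78 (-0.95 to -0.62). Of 20 RNA processing genes 1 was higher (Fastkd1, 25 and 51 reads) and 1 lower. The lower one, Fastkd3, had 1084 and 535 reads, at -1.04 (-1.20 to -0.89). Lrpprc, which stabilises mitochondrial messenger RNAs, had 195 reads in each library.

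Among the biogenesis regulators, Ppargc1a had 1 and 0 reads, and its relatives Ppargc1b and Pprc1 had 26 and 30, and 116 and 187 reads (0.65, 0.32 to 1.01, for Pprc1). Myc had 1631 and 460 reads, at -1.85 (-2.01 to -1.70). Nrf1 had 1091 and 907 reads (-0.29, -0.42 to -0.16). In the import and outer membrane list 2 of 21 genes were lower past the threshold and none higher, beside 11.8% and 12.2% of all genes. Slc25a3, the phosphate carrier gene of the inner membrane, had 35244 and 21171 reads, at -0.76 (-0.79 to -0.74). The chaperonin Hspd1 had 2889 and 1945, at -0.60 (-0.68 to -0.51). The whole list had 73097 and 60099 reads, so its summed ratio leans heavily on Slc25a3.

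**Figure D5:**
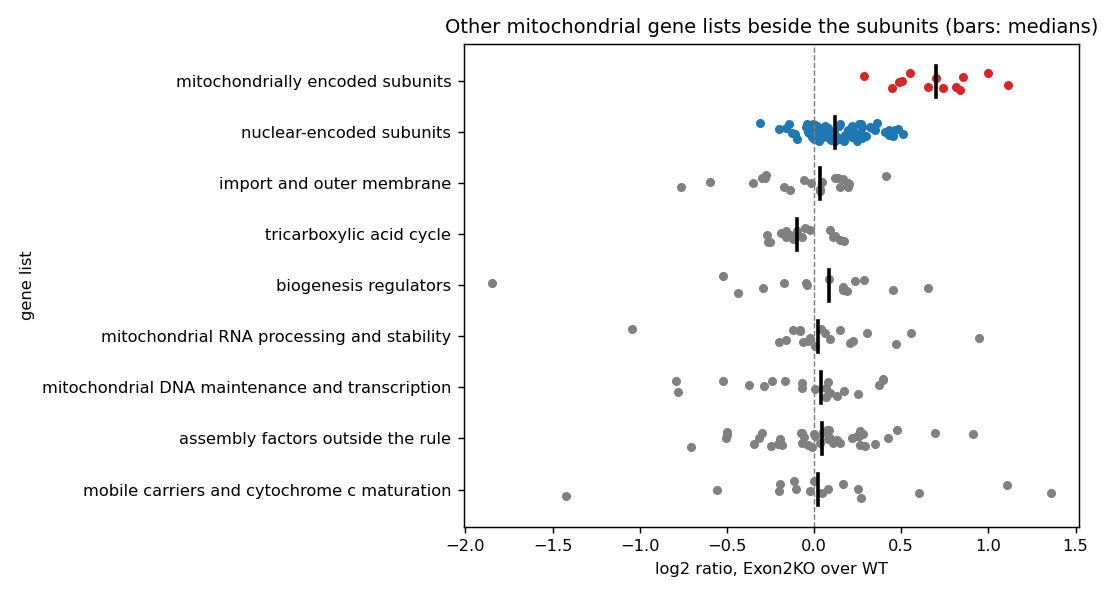
Log2 ratio of Exon2KO over WT for the tested genes of 7 other mitochondrial lists (grey), the nuclear-encoded subunits (blue) and the mitochondrially encoded subunits (red), with black bars for the medians. The list medians lie between -0.10 and 0.09, the nuclear subunits at 0.12 and the mitochondrial genes at 0.70.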

How the data were processed

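Counts of reads per gene were used as the authors deposited them, for 1 library per genotype, and the FPKM values the authors deposited enter no ratio. Per the submitters' processing notes, which give no roles, HISAT2 2.0.5, StringTie 1.3.3b, featureCounts 1.5.0-p3 and DESeq2 1.16.1 were used with build mm10. The log2 fold changes and adjusted p-values in the authors' deposited table were copied where quoted, and a scaled count signal the authors deposited was not used.

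Libraries were scaled with TMM (edgeR 4.0.16 in R 4.3.3), with factors 0.964 for WT and 1.04 for Exon2KO. DESeq2 1.42.0 size factors were an alternative. With 1 library per group there is no spread to test, so ratios carry 95% Clopper-Pearson intervals of the read share, and shares carry Wilson intervals. The labels name no molecular identifiers, so these intervals treat amplified reads as independent and cover counting error only. The minimum was 10 reads, summed over the libraries, and the threshold was 1.5-fold with an interval that leaves out 1. The computation was checked on simulated data. Genes named are the mitochondrial ones, those past the threshold with at least 100 reads in 1 library, and the extremes of each complex and list, with tissue isoforms and their partners. Others (such as Cyc1, Polrmt, Tfam, Lrpprc and Nrf1) were picked after their values were seen. Sequences came from GENCODE M21 and RefSeq. Members and lists were chosen with earlier results of these data known. Python 3.11.15 with scipy 1.17.1 and statsmodels 0.14.6 was used.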

Additional observations from a re-analysis of the deposited data

How the results depend on the processing

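The summed mitochondrial log2 ratio (0.61) was 0.62 with DESeq2 size factors, 0.71 with total counts and 0.62 for the genes outside the stretch copied on chromosome 1, an alternative chosen after the data were seen. The summed nuclear subunit ratio (0.08) was 0.091 with DESeq2 size factors and 0.18 with total counts. Total counts also moved the median of the nuclear subunits to 0.23, and those of complexes I to V to 0.20, 0.17, 0.26, 0.30 and 0.20, by the shift of that scaling. The summed ratios of the mitochondrial genes and of the nuclear subunits, and the medians by encoding and by complex, kept their sign under the settings run. With total counts the complex II sum, the tricarboxylic acid cycle median and sum, and 13 members turned from below 0 to above it, among them Atp5b (0.01), Uqcrc1 (0.06), Cox8a (0.08), Sdhb (0.09), Cox4i1 (0.09) and Atp5g1. Of 9 members with an interval wholly below 0, 7 then took in 0 (Atp5b, Cox4i2, Cox7a2l, Ndufa13, Ndufb7, Ndufs4 and Uqcrc2). DESeq2 size factors turned 6 members and upper quartile scaling 1. Members higher past the threshold numbered 14 with total counts and 2 at a threshold of 2-fold, against 8. The 1 lower member, Cox4i2, was lost with total counts and with at least 100 reads (0 lower). Over all genes, 2114 were higher and 2043 lower, and with total counts 2590 and 1681. At least 100 reads left 941 and 1138, and at least 1000 reads in protein-coding genes, also added later, left 159 and 330, as fewer genes were tested. Protein-coding genes alone left 1334 higher and 1501 lower, and 2-fold left 1481 and 1286. The gain of mitochondrial genes in the share of respiratory chain reads, 8.18 percentage points, was 7.78 without mt-Co1, mt-Co2 and mt-Co3, and 7.08 for the genes outside the copied stretch. The difference of medians stayed between 0.55 and 0.62. Depth limits mt-Atp8, mt-Nd4l and the tissue isoforms. No paired analysis was possible because each genotype has 1 library, and for the same reason no library could be left out.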
